A study of Mus musculus with 6 samples.

Results

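Carbonic anhydrases and bicarbonate transporters set the pH inside and around cells, and 9 of their genes were followed here in pancreatic stellate cells (PSCs) kept at 1% O2 or 21% O2. The genes were 7 carbonic anhydrases (Car2, Car5b, Car6, Car9, Car12, Car13 and Car14) and 2 sodium bicarbonate cotransporters (Slc4a4 and Slc4a7), chosen by name and found by their Ensembl identifiers among 55426 features. PSCs are resident cells of the pancreas that can give rise to cancer-associated fibroblasts, as other cell types also can. They were isolated from adult wild-type C57BL/6 mice of both sexes and used as primary lines at low passage, seeded in Matrigel in a transwell insert above organoids of mT3. This single mouse PDAC line comes from a tumor of a genetically engineered mouse, in which Pdx1-Cre recombines conditional alleles in the pancreas, a mutant Trp53 allele among them. Poly(A) RNA of the PSCs was sequenced after 48 h in 3 samples at 21% O2 (normoxia) and 3 at 1% O2 (hypoxia), all of them in coculture. The samples held 24749601 to 31925054 counts each. The labels do not say whether the samples of one condition came from separate PSC lines, so p-values measure the spread between samples, which may be technical.

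Carbonic anhydrases interconvert carbon dioxide and water with bicarbonate and a proton. Car9, Car12 and Car14 are anchored in the plasma membrane with the catalytic domain facing outside, Car2 and Car13 work in the cytosol, Car5b in mitochondria, and Car6 is secreted. Slc4a4 (NBCe1) and Slc4a7 (NBCn1) carry bicarbonate across the plasma membrane together with sodium. Cells that lean on glycolysis export much acid, and Car9 is a textbook target of the hypoxia-inducible factors (HIFs), which bind DNA at a core spelled ACGTG or GCGTG.

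The RefSeq promoters (GRCm38.p6) of Car9, Car12 and Car6, the tested enzymes among the 9 genes that rose at 1% O2, and of Car5b, which fell most among the 9, are shown because HIF acts at this core. Each is the 250 bases before the RefSeq start, on the strand of the gene, with every ACGTG or GCGTG of either strand in capitals (CACGT and CACGC are the same letters read from the other strand).
Car9, chr4:43506776-43507025, plus strand: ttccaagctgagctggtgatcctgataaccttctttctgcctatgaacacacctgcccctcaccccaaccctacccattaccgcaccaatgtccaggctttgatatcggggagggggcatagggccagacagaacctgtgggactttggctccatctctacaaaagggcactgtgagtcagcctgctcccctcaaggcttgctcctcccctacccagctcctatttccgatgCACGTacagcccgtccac
Car12, chr9:66713436-66713685, plus strand: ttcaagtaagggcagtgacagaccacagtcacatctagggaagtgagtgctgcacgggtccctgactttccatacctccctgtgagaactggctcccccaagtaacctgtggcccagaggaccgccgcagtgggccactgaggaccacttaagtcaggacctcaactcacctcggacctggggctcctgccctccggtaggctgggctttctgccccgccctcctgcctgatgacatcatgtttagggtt
Car6, chr4:150201136-150201385, minus strand: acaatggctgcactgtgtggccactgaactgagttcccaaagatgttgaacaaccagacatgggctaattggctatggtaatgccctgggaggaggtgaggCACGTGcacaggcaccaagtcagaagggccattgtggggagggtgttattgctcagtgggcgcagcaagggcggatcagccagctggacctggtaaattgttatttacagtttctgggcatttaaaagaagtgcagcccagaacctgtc
Car5b, chrX:164028011-164028260, minus strand: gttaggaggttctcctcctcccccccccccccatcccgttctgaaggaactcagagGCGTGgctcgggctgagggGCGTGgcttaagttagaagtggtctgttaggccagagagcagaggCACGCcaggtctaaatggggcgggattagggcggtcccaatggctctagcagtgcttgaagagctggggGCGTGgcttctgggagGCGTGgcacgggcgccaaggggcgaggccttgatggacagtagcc
Car9 held 1 match, an ACGTG on the opposite strand that began 18 bases before the start. GENCODE places the first base of Car9 at 43506966, so in that annotation the match lies inside the gene. The same holds for the matches before the RefSeq start of Car6 and Slc4a4 given next. Car14, on the minus strand, has its GENCODE first base at 95904691. The Car14 match given next has its lowest base at 95904688 and extends past that first base, so it lies only partly inside the gene. GENCODE places the first base of Slc4a7 at 14702279, far before its RefSeq window at chr14:14718534-14718783, so that window is not at the GENCODE start. Car6 held ACGTG on both strands within 1 palindromic CACGTG, at 149 and 148 bases before the start. Car5b, which fell, held 5 copies of GCGTG and no ACGTG, and Car12, which rose, held neither. Over windows that also include the 50 bases after the start, Car6 had a further GCGTG, Car14 an ACGTG that began 7 bases before its start, Slc4a4 a GCGTG in 1 of its 2 windows, and Slc4a7 no match. Car2 and Car13 had no entry. ACGTG occurred in 19.6% and GCGTG in 32.4% of all 32851 such windows, and either in 43.8%. Over only the 250 bases before the start, as printed above, ACGTG occurred in 16.6% and either in 38.6%. A match of letters describes the window and does not show binding.

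Of the 9 genes, 8 had enough counts to be tested, and all 8 were called, 4 higher and 4 lower at 1% O2. A call needed more than a 1.5-fold change and an adjusted p under 0.05 in the quasi-likelihood test of edgeR, fitted to 16207 genes. Of those genes 62.7% passed the adjusted p and 34.2% were called, 18.9% higher and 15.3% lower. The genes were listed with earlier results of these data known, so their share of calls is a description. The median log2 fold change of the 8 was -0.00, beside -0.00 over all tested genes. For each of the 9 genes the 3 hypoxic samples lay entirely above or entirely below the 3 normoxic samples, which held for 68.9% of tested genes, 34.9% above and 34% below. Those called higher were the membrane-bound Car9 and Car12, the secreted Car6 and the cotransporter Slc4a7. The cytosolic and mitochondrial enzymes fell, and the bicarbonate cotransporters moved in opposite directions. Levels are given as CPM, a gene's counts relative to the TMM-scaled library total.

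**Figure D1:**
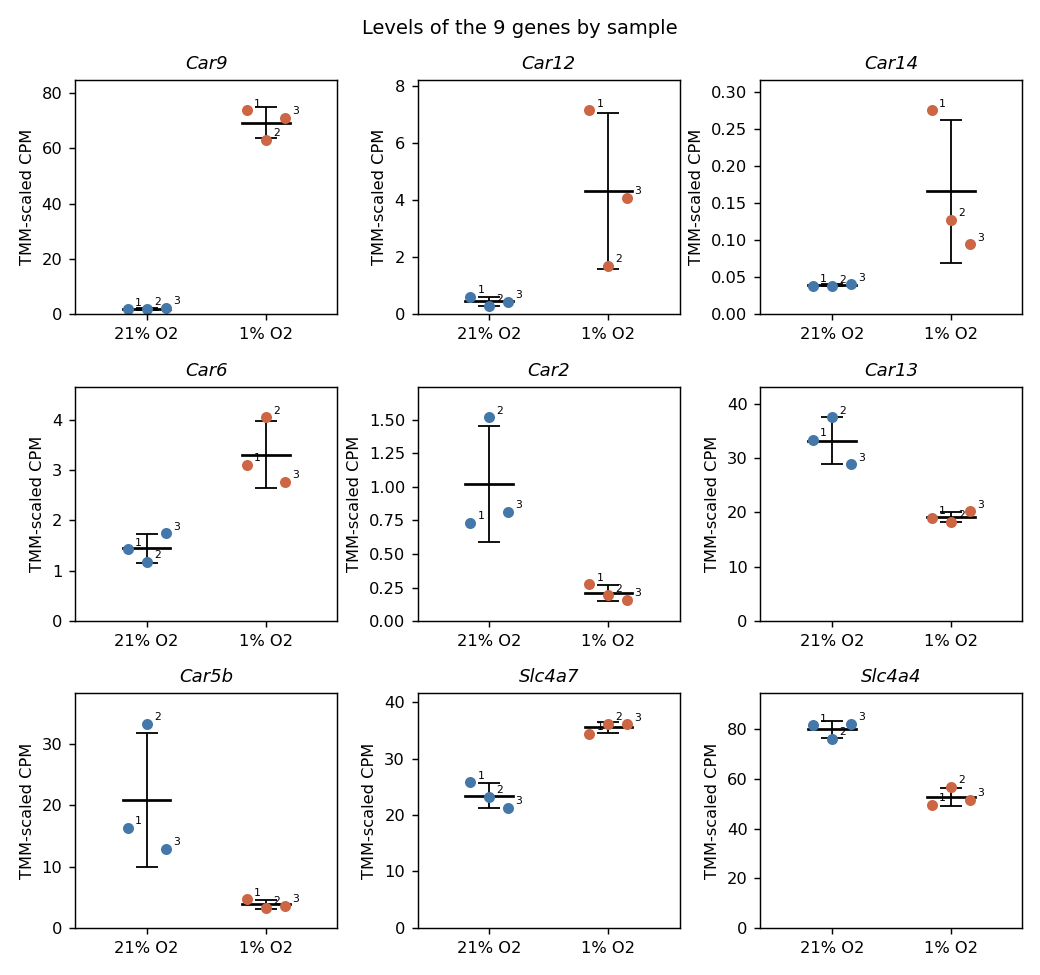
TMM-scaled CPM of the 9 genes in each sample at 21% O2 (blue) and 1% O2 (orange), on linear axes from 0, with numbers marking the replicate and bars the mean ± SD of 3 samples. In every panel the conditions do not overlap, and the ratio of highest to lowest sample at 1% O2 is largest for Car12, at 4.23 (1.69 to 7.15 CPM).

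Car9 is the membrane-bound, outward-facing enzyme used widely as a marker of hypoxic tissue (ENSMUSG00000028463; chromosome 4 of GRCm38, 43506966 to 43513729, plus strand). It stood at 1.77, 1.90 and 2.27 CPM in normoxic replicates 1, 2 and 3 and at 73.7, 63.0 and 70.9 CPM in the hypoxic replicates. The lowest hypoxic sample was 27.7 times the highest normoxic one, and samples of one condition differed by at most 1.28 times. edgeR put the log2 fold change at 5.13 with a standard error of 0.11 and an adjusted p of 1.01e-08, a 34.9-fold rise. Only 0.481% of tested genes changed by at least as much in either direction, and Car9 ranked 5 by p. An antisense gene, Gm12454, overlaps 9.29% of its exon bases, and the strand setting of the counting is not stated. That gene was assigned 6 to 26 counts per sample, beside 46 to 2255 for Car9.

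The organoids below the PSCs are epithelial, and carcinoma cells can express Car9. The summed level of 10 epithelial markers was 3.26 to 5.40 CPM in normoxia and 25.0 to 29.0 CPM in hypoxia. Almost all of that rise was Krt19, a keratin chosen here after its values were seen, at 12 to 27 counts in normoxia and 525 to 760 in hypoxia. Of the 3 markers with enough counts to be tested, 1 was called higher and 0 lower. Epcam and Cdh1, markers of epithelial cells in general, had 0 or 1 counts in every sample. The part of organoid cells in the level of Car9 was not tested. The 12 PSC and fibroblast markers summed to 28462 to 35660 CPM in normoxia and 30496 to 35343 CPM in hypoxia, with 2 called higher and 2 lower.

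Car12, the second membrane-bound enzyme (ENSMUSG00000032373; chromosome 9, 66713686 to 66766845, plus strand), was scarce in normoxia, with 16, 8 and 11 counts. It reached 182, 53 and 130 counts in hypoxia. In CPM these are 0.616, 0.304 and 0.446 against 7.15, 1.69 and 4.09. Hypoxic replicate 1 was 4.23 times replicate 2, the largest such ratio within a condition among the 8 tested genes. On the log2 scale the change was 3.22 with a standard error of 0.55 (edgeR, adjusted p = 0.000805), and without hypoxic replicate 1 it was 2.66. Within each condition Car12 was lowest in replicate 2, the sample in which macrophage and adipocyte markers were highest, and the part of these cells in that spread was not tested.

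Car14, the remaining membrane-bound enzyme (ENSMUSG00000038526; chromosome 3, 95897768 to 95904691, minus strand), was at the limit of detection. It had 1 count in each normoxic sample and 7, 4 and 3 counts in the hypoxic samples, too few for the filter. Over each condition this is 3 against 14 counts, a ratio of 4.05 after scaling (exact 95% interval 1.13 to 22.0, for counting error only). Fitted without the filter, its log2 fold change of 1.91 did not pass (adjusted p = 0.124 from edgeR). The protein-coding gene Aph1a overlaps 17.5% of its exon bases on the opposite strand and had 3374 to 4346 counts.

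Car6, the secreted enzyme best known from saliva (ENSMUSG00000028972; chromosome 4, 150187015 to 150201332, minus strand), went from 37, 31 and 43 counts to 79, 127 and 88. Its level rose from 1.45 ± 0.285 to 3.31 ± 0.667 CPM (SD, n = 3 per condition). The lowest hypoxic sample was 1.59 times the highest normoxic one. edgeR put the log2 fold change at 1.19 with a standard error of 0.23 and an adjusted p of 0.00159.

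**Figure D2:**
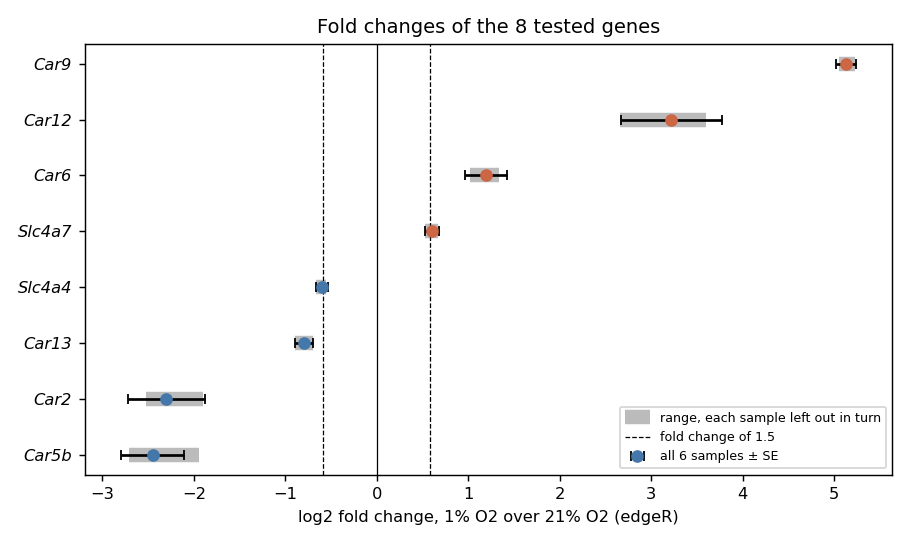
log2 fold change (1% O2 over 21% O2) of the 8 tested genes from edgeR, with bars for the standard error and grey bands for the range when each sample was left out in turn. Car9 lies at 5.13, Slc4a4 and Slc4a7 lie at the dashed lines of a 1.5-fold change, and Car5b is lowest at -2.45.

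The enzymes inside the cell moved the other way. Car5b, the mitochondrial enzyme that supplies bicarbonate to carboxylation reactions (ENSMUSG00000031373; chromosome X, 163976822 to 164027997, minus strand), stood at 16.3, 33.2 and 12.9 CPM in normoxia. In hypoxia it stood at 4.67, 3.25 and 3.58 CPM. Normoxic replicate 2 was far above the other normoxic samples, by up to 2.58 times, while the hypoxic samples lay close together. On the log2 scale the change was -2.45 with a standard error of 0.34 (edgeR, adjusted p = 0.000238). Without normoxic replicate 2 it was -1.94 (adjusted p = 1.37e-05 from edgeR).

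Car2, the fast cytosolic isoform found in many tissues (ENSMUSG00000027562; chromosome 3, 14886273 to 14900770, plus strand), had 19, 40 and 20 counts in normoxia and 7, 6 and 5 in hypoxia. It too was highest in normoxic replicate 2. edgeR put the log2 fold change at -2.30 with a standard error of 0.42 and an adjusted p of 0.00118, and -1.90 without that sample. Car13, the other cytosolic isoform (ENSMUSG00000027555; chromosome 3, 14641727 to 14663002, plus strand), was far more abundant. It stood at 33.3, 37.5 and 28.8 CPM in normoxia and at 19.0, 18.2 and 20.2 CPM in hypoxia. On the log2 scale the change was -0.79 with a standard error of 0.10 (edgeR, adjusted p = 0.000111), a 1.73-fold fall.

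Car13, Car1, Car3 and Car2 lie next to each other on chromosome 3 within 259044 bases. Car3, a cytosolic enzyme abundant in muscle and fat, fell most steeply of the 4. It had 1302, 5480 and 1601 counts in normoxia and 25, 114 and 49 in hypoxia, which is -5.67 on the log2 scale with a standard error of 0.67 (edgeR, adjusted p = 8.4e-05). Its value was -4.77 without normoxic replicate 2 and -6.39 without hypoxic replicate 2. Car1, named after its values were seen, had 2, 3 and 1 counts in normoxia and 0 in every hypoxic sample, too few to be tested. All of the neighbours therefore had their lower values at 1% O2, though by very different amounts.

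Adipocyte markers moved with these genes. The 7 markers summed to 652, 1576 and 604 CPM in normoxic replicates 1, 2 and 3 and to 59.7, 81.1 and 61.5 CPM in hypoxia, with Lep at 0 in every sample. All 6 markers that could be tested were called lower, with a median log2 fold change of -4.04. Normoxic replicate 2 thus held the highest level of the adipocyte markers and of Car5b, Car2, Car3 and Car13. In hypoxia the adipocyte markers and Car3 were highest in replicate 2, where Car5b and Car13 were lowest. Their part in the fall of these genes was not tested. In bulk RNA, fewer cells of a type and less RNA per cell cannot be told apart. Markers of macrophages and leukocytes summed to 969 to 1723 CPM in normoxia and 497 to 890 CPM in hypoxia, with 8 of 12 called lower and 0 higher. Of 7 endothelial markers 2 were called higher and 2 lower. Only 1 of 9 acinar markers and none of 7 erythroid markers had enough counts to be tested, and the acinar one was not called. The erythroid markers, whose cells carry Car1 and Car2, summed to at most 0.0785 CPM in any sample.

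**Figure D3:**
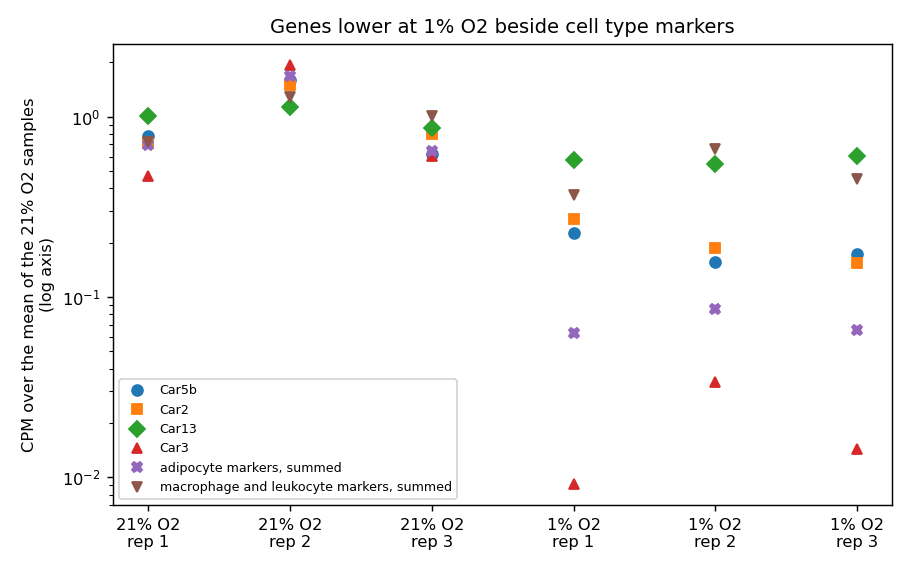
CPM of Car5b, Car2, Car13 and Car3 and the summed CPM of adipocyte and of macrophage and leukocyte markers, each divided by its mean over the 3 samples at 21% O2, on a log axis. Normoxic replicate 2 holds the highest value of every series, and all series are lower at 1% O2.

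The bicarbonate cotransporters changed little and in opposite directions. Slc4a4, the electrogenic cotransporter that loads pancreatic duct cells with bicarbonate (ENSMUSG00000060961; chromosome 5, 88886818 to 89239653, plus strand), stood at 81.7, 76.2 and 82.2 CPM in normoxia. It stood at 49.6, 56.9 and 51.7 CPM in hypoxia. edgeR put the log2 fold change at -0.60 with a standard error of 0.07 and an adjusted p of 5.11e-05, a 1.52-fold fall. Slc4a7, the electroneutral cotransporter (ENSMUSG00000021733; chromosome 14, 14702279 to 14799940, plus strand), stood at 25.8, 23.2 and 21.3 CPM in normoxia and 34.4, 36.1 and 36.0 CPM in hypoxia. On the log2 scale the change was 0.60 with a standard error of 0.08 (edgeR, adjusted p = 0.000141), a 1.52-fold rise. Both lie just past the fold threshold of 0.585 on the log2 scale. With a correction for gene length Slc4a7 stood at 0.49 and without normoxic replicate 3 at 0.53, and Slc4a4 without hypoxic replicate 1 at -0.56, which the fold threshold does not pass. The summed level of the 10 SLC4 family genes was 330 to 355 CPM in normoxia and 325 to 344 CPM in hypoxia, so the conditions overlapped. The largest part of that sum was Slc4a2, which was not called. It stood at 193 ± 13.1 CPM in normoxia and 169 ± 9.46 CPM in hypoxia (SD, n = 3 per condition), with the hypoxic samples all below the normoxic ones.

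To compare levels between genes, CPM were divided by the length of each gene's merged GENCODE exons in kb. In normoxia the order of the 9 genes was Car13 at 14.4 ± 1.89 CPM per kb, Slc4a4 at 7.40 ± 0.308, Car5b at 3.28 ± 1.72, Slc4a7 at 1.54 ± 0.148, Car9 at 0.859 ± 0.113, Car6 at 0.798 ± 0.157, Car2 at 0.421 ± 0.179, Car12 at 0.0599 ± 0.0206 and Car14 at 0.0153 ± 0.000543 (SD, n = 3 per condition). Among neighbours in that order, samples of Car9 and Car6 overlapped. In hypoxia Car9 moved from rank 5 to rank 1, at 30.0 ± 2.41 CPM per kb, above Car13 at 8.33 ± 0.427 and Slc4a4 at 4.87 ± 0.349. Slc4a7 at 2.34 ± 0.064 and Car6 at 1.82 ± 0.368 followed. Car5b at 0.604 ± 0.117 and Car12 at 0.567 ± 0.36 overlapped, as did Car2 at 0.0858 ± 0.025 and Car14 at 0.0651 ± 0.0378.

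Over all 16 carbonic anhydrases, the leading gene by level per length was Car3 in normoxia and Car9 in hypoxia. Car3 held 41.2%, 69.9% and 48.6% of the family's summed CPM per kb in the normoxic samples, and Car13 34.1%, 15.7% and 26.8%. Car9 held 1.81%, 0.794% and 2.11% there. In hypoxia Car9 held 57.5%, 54.3% and 56.8%, Car3 between 0.616% and 2.53%, and Car13 between 14.9% and 16.2%. Leaving Car3 out, Car9 held 2.64% to 4.11% of the rest in normoxia and 55.8% to 57.8% in hypoxia. The summed level of the family was 42.4, 104 and 46.7 CPM per kb in normoxia and 55.6, 50.3 and 54.2 CPM per kb in hypoxia. The hypoxic sums lie within the normoxic range, which normoxic replicate 2 sets through Car3. Without Car3 the sums were 24.0 to 31.2 against 49.0 to 55.3 CPM per kb. Of these, Car9 alone held 0.769 to 0.986 CPM per kb in normoxia and 27.3 to 32.0 CPM per kb in hypoxia.

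**Figure D4:**
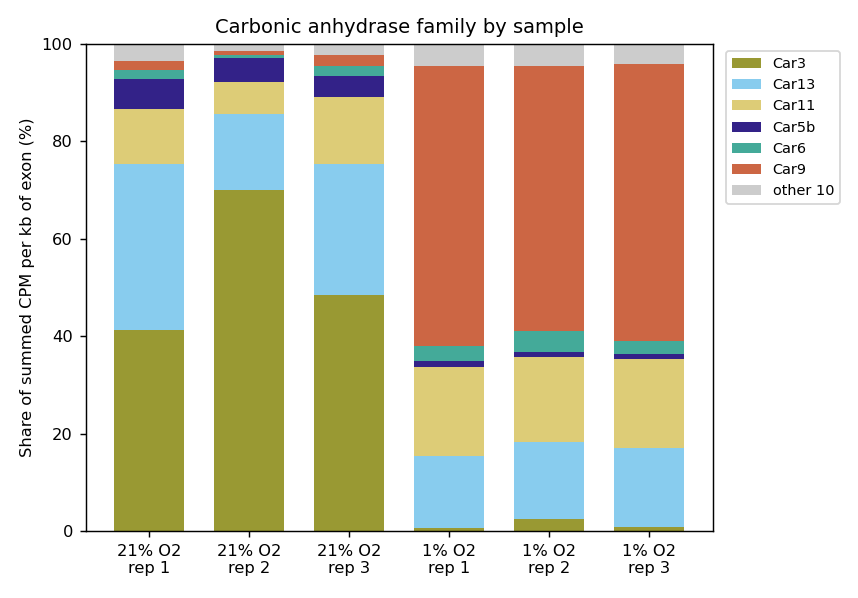
Share (%) of each carbonic anhydrase in the family's summed CPM per kb of exon, by sample, with 10 low genes pooled in grey. Car3 and Car13 fill most of each bar at 21% O2, and Car9 fills 54.3% to 57.5% at 1% O2.

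Of the carbonic anhydrases that were not among the 9 genes, 5 of 9 could be tested, and 2 were called higher and 1 lower (Car3). Car11, a relative without catalytic activity, rose from 11.5 ± 1.99 to 18.4 ± 1.37 CPM (SD, n = 3 per condition), or 0.67 on the log2 scale that was 0.44 with a correction for GC content and then did not pass the fold threshold. Car15 had 18, 10 and 5 counts in normoxia and 33, 67 and 55 in hypoxia (log2 fold change 2.01). It shares 65.7% of its exon bases with Gm20518 on the same strand, so its value is uncertain. Car7 and Car8 were tested and not called, and Car5a had 0 counts in every sample.

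The rest of the acid and base machinery was described by lists of transporters, pumps and sensors. Without the 9 genes, the lists held 86 genes, of which 59 were tested, 17 called higher and 12 lower, with a median log2 fold change of -0.18. Over all tested genes 18.9% were called higher and 15.3% lower, the shares beside which each list below stands. The counts per list are a description. Of the 4 tested monocarboxylate transporters, which carry lactate across the membrane together with a proton, 3 were called higher and 1 lower. Their 2 chaperones were split, with Bsg called higher and Emb lower. Slc16a3 (MCT4), the lactate exporter of glycolytic cells, rose from 187 ± 21.3 to 805 ± 33.1 CPM (SD, n = 3 per condition), or 2.11. on the log2 scale The chaperone Bsg (basigin) rose from 728 ± 22.7 to 2317 ± 106 CPM (SD, n = 3 per condition), or 1.67. on the log2 scale Slc16a7 (MCT2), a transporter of high affinity, fell from 2.48 ± 0.431 to 0.577 ± 0.0376 CPM (SD, n = 3 per condition).

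Among the other bicarbonate transporters of the SLC4 family, 2 of 4 tested genes were called higher and 0 lower. Slc4a8, a sodium-driven chloride and bicarbonate exchanger, changed by 1.91 on the log2 scale with a standard error of 0.18, from 1.32 ± 0.207 to 4.96 ± 0.48 CPM (SD, n = 3 per condition). Slc4a11, a plasma membrane transporter that carries protons, rose by 1.10 with a standard error of 0.18. Of the SLC26 anion exchangers, 2 of 6 tested genes were called higher and 0 lower. Slc26a8 had a log2 fold change of 1.95 at low levels, 0.479 ± 0.228 against 1.86 ± 0.0951 CPM (SD, n = 3 per condition). Slc26a10 had 0.96 and lost its call when normoxic replicate 2, hypoxic replicate 1 or hypoxic replicate 2 was left out (adjusted p from 0.0552 to 0.0771 in edgeR). The protein-coding gene B4galnt1 overlaps 17.8% of the exon bases of Slc26a10 on the opposite strand.

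Sodium-proton exchangers and their partner proteins were split, with 3 of 10 tested genes called higher and 3 lower. Slc9a9, an exchanger of endosomes, fell from 13.5 ± 0.872 to 4.62 ± 0.577 CPM (SD, n = 3 per condition), and Slc9a3r2, a scaffold for exchangers, fell from 48.5 ± 2.27 to 20.8 ± 0.932 CPM (SD, n = 3 per condition). Slc9b2 rose from 4.53 ± 0.652 to 12.4 ± 1.71 CPM (SD, n = 3 per condition). Of the subunits of the V-ATPase, the proton pump that acidifies lysosomes, 20 of 25 were tested. Of these, 17 had a log2 fold change below 0, with a median of -0.34, 5 were called lower and 2 higher. A further 11 passed the adjusted p in edgeR but lay below the fold threshold. Atp6v0a1 fell from 114 ± 6.61 to 65.4 ± 8.98 CPM (SD, n = 3 per condition). The tissue-restricted subunits Atp6v0d2, with a log2 fold change of 1.59, and Atp6v1g2, with 0.89, were the 2 called higher.

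Among acid-sensing receptors and proton channels, 2 of 8 tested genes were called higher and 1 lower. Slc11a2, a proton-coupled metal ion transporter, had a log2 fold change of 0.69, and 0.58 with a correction for gene length, which does not pass the fold threshold. As a check of the treatment, 10 of 10 widely used hypoxia genes were called higher, with log2 fold changes from 1.03 for Ldha to 3.79 for Ndrg1.

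**Figure D5:**
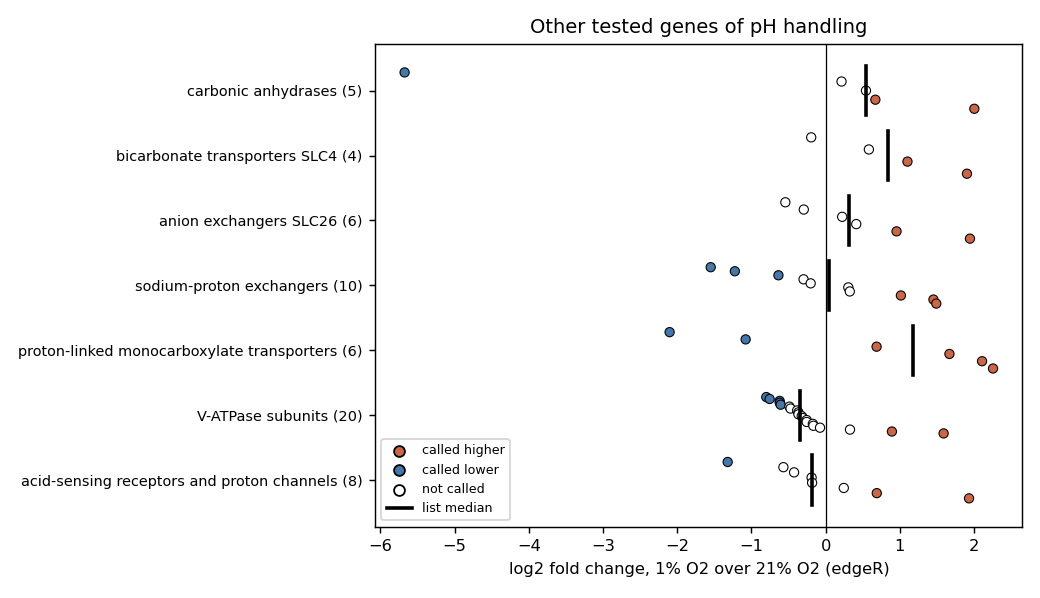
log2 fold change (1% O2 over 21% O2, edgeR) of the tested genes of each pH list without the 9 genes, with the number tested in brackets, orange for genes called higher, blue for lower, white for not called, and a black line at the list median. The V-ATPase median is -0.34, and the lowest point is Car3 at -5.67.

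The genes whose log2 CPM over the 6 samples followed Car9 most closely by Pearson's r were Syt17 (r = 0.9998), Pde4a (r = 0.9996) and Fam19a2 (r = 0.9995). With 2 conditions the difference between them dominates such values, so they are a description. Syt17 stood at 1.73, 1.75 and 2.15 CPM in normoxia and 23.4, 21.3 and 23.7 CPM in hypoxia. Pde4a, a phosphodiesterase of cyclic AMP, changed far less, with a log2 fold change of 0.85.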

How the data were processed

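Poly(A) RNA of PSCs cocultured with mT3 organoids was sequenced in 3 normoxic and 3 hypoxic samples. Per the study's methods and the submitters' processing notes, the authors trimmed adapters with Cutadapt, mapped reads to GRCm38 with STAR (2.6.1b) and estimated expected counts per gene with RSEM (1.3.1). The authors deposited these expected counts without normalization between samples. The annotation release and strand setting are not given in the sources used here. All values were whole. Columns were matched to samples by the sample names in the labels. The 5 transgene features had 0 counts. Names, coordinates and exon lengths come from GENCODE M21 (GRCm38), which held 55240 of the 55426 identifiers.

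Genes passing filterByExpr (16207) were fitted with edgeR 4.0.16 (limma 3.58.1, R 4.3.3), using TMM scaling, the quasi-likelihood test and Benjamini-Hochberg adjustment. Calls needed a fold change of 1.5 and an adjusted p under 0.05, the thresholds of the study's methods. Standard errors are the log2 fold change over the square root of F. At these depths 3 counts correspond to 0.0943 to 0.122 CPM. With 3 samples against 3, an exact permutation test cannot give a two-sided p below 0.1. No samples of a condition agreed within sampling noise (chi-square per degree of freedom 5.68 to 22.5). Fits were tested on simulated data. DESeq2 1.42.0 and the other alternatives are given in the closing section.

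The genes and lists were chosen with earlier results of these data known. Beside the 9 genes, up to 3 genes per list were named, those with the largest change among genes called at a mean of at least 1 CPM, along with the 3 genes most like Car9. Krt19, Epcam, Cdh1, Lep, Emb, Car1, Car5a, Car7, Car8, Slc4a2, Ldha and Ndrg1 fall outside this rule and were named after their values were seen. One list gene that the rule names and one allele of the mT3 line are not reported here.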

Additional observations from a re-analysis of the deposited data

How the results depend on the processing

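Car9, Car12, Car6, Car2 and Car5b kept their direction and their call in all 16 alternatives: other scalings, no filter on low counts, the replicate block, each sample left out, DESeq2, limma-voom, corrections for GC content and gene length, and other fold thresholds. Neither the 8 tested genes nor the 18 list genes chosen by rule changed direction. The calls near the threshold changed. For Slc4a7 the log2 fold change was 0.58 with upper-quartile normalization, 0.58 without a filter, 0.55 with the GC correction and 0.49 with the length correction, where the fold threshold was not reached. It ran from 0.53 to 0.67 with each sample left out, while its adjusted p by edgeR stayed at or below 0.00146. For Slc4a4 the range was -0.66 to -0.56. A fold threshold of 2 removed Slc4a7 (0.60), Slc4a4 (-0.60) and Car13 (-0.79), which left 2 of the 9 genes called lower and 6 list genes called lower in place of 12. Without a fold threshold 28 list genes were lower. With each sample left out, 9 to 12 list genes were lower and 17 higher. At the 1.5-fold threshold, the list genes chosen by rule that lost a call in some alternative were Car11 (0.53 without normoxic replicate 1, 0.44 with the GC correction), Slc26a10 and Slc11a2, and a fold threshold of 2 also removed Atp6v0a1 and Atp6v1g2. The corrections for GC content and gene length turned the balance over all genes, from 3068 higher and 2479 lower to 2746 and 2963 and to 2718 and 2874, and the lists stood at 16 higher and 12 lower and at 15 and 15.

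Both conditions carry the replicate numbers 1 to 3, and nothing in the labels says that a number marks a shared line or day. The deviations of samples 1, 2 and 3 from their group means correlated across conditions with r = 0.14, 0.14 and 0.04 over 16207 genes, and each sample correlated best with its own number, a hint from the data. With the replicate block 4 genes were called higher and 4 lower, as without it, 17 list genes were higher and 12 lower, and the values were 5.12 for Car9, 3.17 for Car12, -2.36 for Car5b, 0.60 for Slc4a7 and -0.60 for Slc4a4. The block changed the standard errors more than the values. For Car12 the standard error was 0.26 with the block and 0.55 without it, and for Car3 0.10 and 0.67. For Car6, Car13, Slc4a4 and Slc4a7 it was slightly larger with the block. Part of the spread of Car12 and Car3 thus followed the replicate number. Depth limits Car14 and Car1, whose counts were too few for a test, and Car2 had at most 40 counts in any sample.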
